A study of Mus musculus with 10 samples.

Results

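The early growth response (Egr) genes and their corepressors, the Nab genes, were followed in the brains of mice that lack a working copy of the transporter gene Abcc5. Members were taken by name, Egr1, Egr2, Egr3, Egr4, Nab1 and Nab2, and all 6 were found among the 25050 genes of the deposited count table. RNA sequencing was done on 10 whole brains from mice of the FVB/NJ strain, 5 of them wildtype (Abcc5+/+) and 5 Abcc5 knockout (Abcc5-/-). Neither age nor sex is stated in the labels. Brains came from animals killed with carbon dioxide and were put on dry ice at once, in both groups.

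Egr proteins are zinc finger transcription factors that bind GC-rich DNA. Neurons switch their genes on within minutes of synaptic activity or growth factor signalling, through serum response factor, its Ets partners and CREB, and the proteins then drive later genes of plasticity. Nab1 and Nab2 bind Egr1, Egr2 and Egr3 through a shared inhibitory domain and turn them from activators into repressors, partly by recruiting the chromatin remodeller CHD4. Egr factors switch on Nab2, which closes a feedback loop, while Nab1 is expressed more steadily. Egr2 is best known as the master regulator of myelination in Schwann cells and of hindbrain segmentation, and in adult forebrain it is an activity-regulated gene like its relatives.

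Promoter sequences were looked up in RefSeq (build GRCm38.p6), whose table held windows for Egr2, Egr4, Nab1 and Nab2. The 150 bases before the annotated start are shown because members with and without a called genotype difference can be set beside the sites their regulators are known to read. Capitals mark matches, on either strand, to a CArG box (the site of serum response factor), to TGACG (the core of the cAMP response element bound by CREB) or to the Egr sites GCGTGGGCG and GCGGGGGCG.
Egr2, chr10:67537719-67537868, plus strand: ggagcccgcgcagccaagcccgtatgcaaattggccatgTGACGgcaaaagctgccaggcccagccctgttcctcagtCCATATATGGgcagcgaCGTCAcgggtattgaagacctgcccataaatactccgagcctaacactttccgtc
Egr4, chr6:85513590-85513739, minus strand: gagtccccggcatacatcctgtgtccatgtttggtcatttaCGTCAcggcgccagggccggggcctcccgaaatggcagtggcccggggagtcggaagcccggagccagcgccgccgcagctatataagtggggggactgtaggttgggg
Nab1, chr1:52500449-52500598, minus strand: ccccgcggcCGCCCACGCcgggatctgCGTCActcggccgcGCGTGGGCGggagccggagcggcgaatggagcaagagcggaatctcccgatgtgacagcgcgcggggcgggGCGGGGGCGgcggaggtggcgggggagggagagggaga
Nab2, chr10:127666704-127666853, minus strand: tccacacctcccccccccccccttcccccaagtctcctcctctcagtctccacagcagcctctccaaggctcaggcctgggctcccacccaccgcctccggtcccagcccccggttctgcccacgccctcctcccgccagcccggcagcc

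Positions are counted from the start, so that -1 is the base before it, and these coordinates are not those of the deposited table, whose build is not named. The Egr2 window held a CArG box at -72 to -63, with the core TGACG on each side of it. RefSeq gives 5 windows for Egr2, of which 4 held a CArG box, and 3 of those overlap and share the box shown. A CArG box was found in 0.916% of the 32851 windows of the same length, and TGACG in 13.3%. In Egr4 the only match was TGACG, at -109 to -105. The Nab1 window held 3 Egr sites, at -141 to -133, -109 to -101 and -38 to -30, and TGACG at -123 to -119. At least 1 Egr site of either form was found in 2.49% of all windows. The GC content of the Nab1 window was 78.0%, against a median of 54.0% over all windows. None of the motifs occurred in the Nab2 window, which had a GC content of 73.3%. Only exact matches were searched, so near matches to an Egr site, in this window or the others, were not read. A match describes the letters of a window and does not show that a factor was bound.

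Library depth ran from 7731294 to 23588335 counts, and 14526 genes had enough counts to be tested, all 6 members among them. Abcc5 itself, the check of the labels, had a level of 299.2 to 325.9 CPM (counts scaled to library size) in wildtype and 210.7 to 226.2 CPM in knockout brains, without overlap. The table gives 1 count per gene, so the exons behind the remaining Abcc5 reads are not known. Depth fell into 2 classes, with 3 deeper libraries (wildtype replicate 1, knockout replicates 2 and 4) from 19795743 counts up and 7 shallower ones up to 11479995. Knockout replicate 3 stood apart: the summed level of 7 cerebellar markers was 72.8 CPM there, against 777 to 835 CPM in wildtype and 819.8 to 901.5 CPM in the other knockouts. Summed neuronal markers (Rbfox3, Snap25, Syt1, Tubb3) were at 4224 to 4326 CPM in wildtype and 4140 to 4523 CPM in knockout brains. In whole tissue, fewer cells of a type and less RNA per cell cannot be told apart.

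The comparison of genotypes asked whether the Egr and Nab genes differed in knockout brains. Egr2, Nab2 and Egr1 fell, and all 6 members had a lower mean in knockout than in wildtype. Egr2 fell 2.98-fold, while Egr1 fell 1.51-fold and Nab2 1.33-fold. Egr3, Egr4 and Nab1 did not pass. By edgeR's quasi-likelihood test, 3 of the 6 members had an adjusted p below 0.05, all lower, where 0.964% of all tested genes were called lower, 0.213% higher and 1.18% in either direction. The median log2 fold change was -0.43 over the members and 0.0042 over all tested genes, of which 48.4% had a value below 0.

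**Figure D1:**
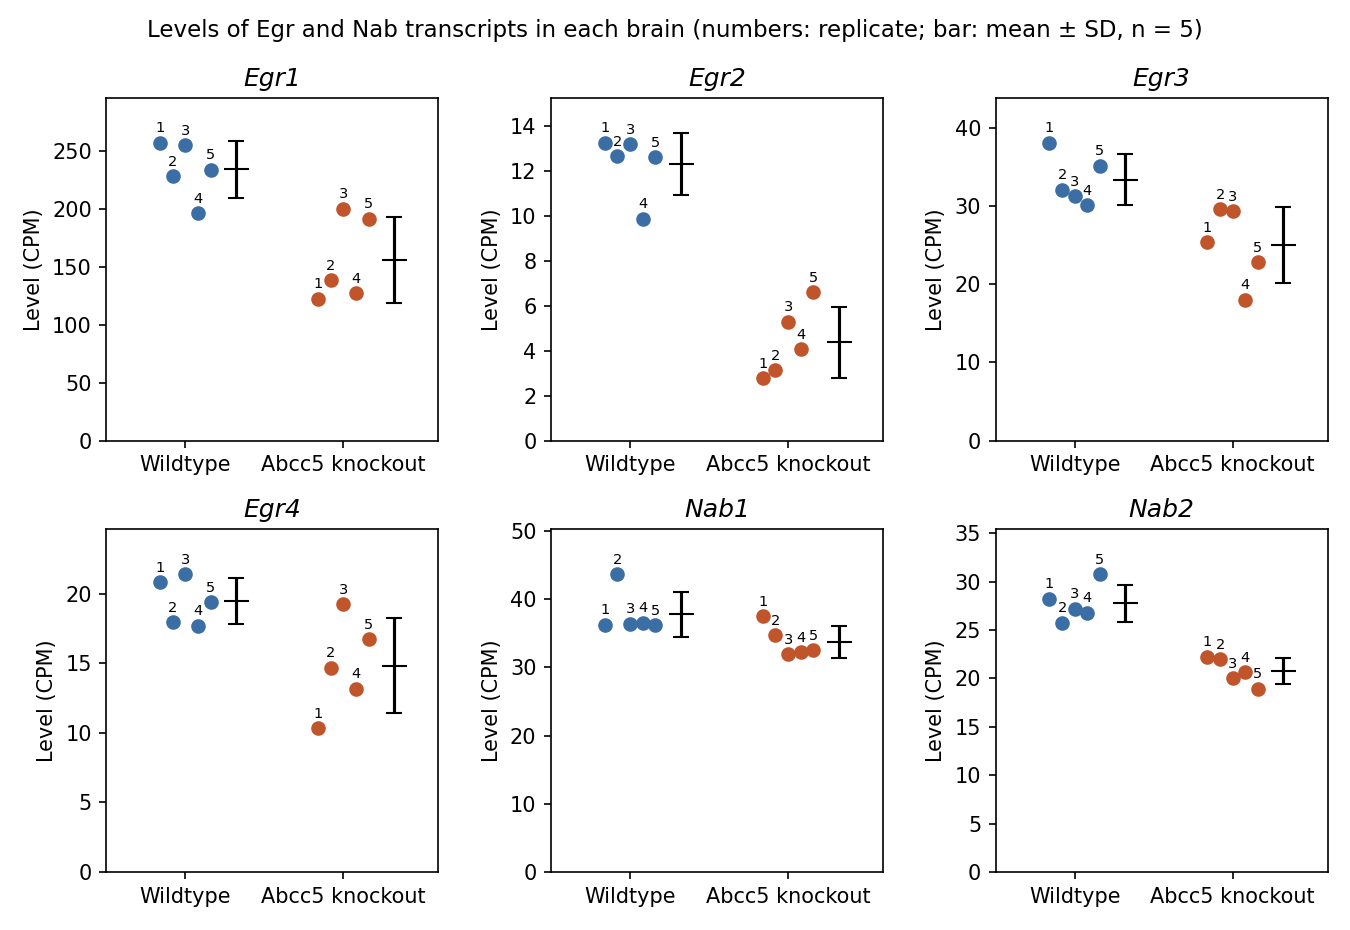
Level of each gene in each brain, in CPM on a linear axis from 0, with wildtype in blue and Abcc5 knockout in orange; digits are replicate numbers and the black bar is the mean ± SD (n = 5). Egr2, Egr3 and Nab2 show no overlap of the groups, and for Egr1 knockout replicate 3 (200.5 CPM) lies above wildtype replicate 4 (197 CPM).

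Egr2 (ENSMUSG00000037868, chromosome 10, 66998223 to 67004936 as the authors positioned it) showed the widest separation. Its level in wildtype replicates 1 to 5 was 13.2, 12.6, 13.2, 9.86 and 12.6 CPM, from 263, 126, 102, 113 and 108 counts. In knockout replicates 1 to 5 it was 2.78, 3.14, 5.28, 4.07 and 6.59 CPM, from 24, 69, 40, 96 and 54 counts. Every knockout brain was below every wildtype brain, and the knockouts themselves spread over more than a doubling, with replicate 5 highest and replicate 1 lowest. Mean levels were 12.3 ± 1.40 CPM in wildtype and 4.37 ± 1.57 CPM in knockout (SD, n = 5 each), a log2 fold change of -1.57 (SE 0.168, edgeR adjusted p 0.000151). Only 1 of the 14526 tested genes had a lower log2 fold change. The direction and the call held in all 20 alternative fits, with log2 fold changes from -1.72 to -1.30.

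Egr1 (ENSMUSG00000038418, chromosome 18, 35019477 to 35024638) is the most studied member, a marker of recent neuronal activity. Its level in wildtype replicates 1 to 5 was 258, 228.5, 255.5, 197 and 234 CPM. In knockout replicates 1 to 5 it was 123, 139, 200.5, 127.5 and 192 CPM. The knockouts fell into a lower set (replicates 1, 2 and 4) and a pair near the bottom of the wildtype range (replicates 3 and 5), so the groups just touched. Means were 234.5 ± 24.7 and 156 ± 37.1 CPM (SD, n = 5 each), a log2 fold change of -0.595 (SE 0.125, edgeR adjusted p 0.0308). Most single libraries were needed for the call. Leaving out any 1 of wildtype replicates 1, 2, 3 and 5 or knockout replicates 1, 2 and 4 took the edgeR adjusted p to between 0.0548 and 0.0965, and the 7 shallower libraries alone gave -0.41 (adjusted p 0.294). Without knockout replicate 3, the library low in cerebellar transcripts, the log2 fold change was -0.70 and the edgeR adjusted p 0.000633.

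Egr3 (ENSMUSG00000033730, chromosome 14, 70477252 to 70479964), which acts in muscle spindle development and in hippocampal plasticity, did not pass although its groups did not overlap. Wildtype replicates 1 to 5 had 38.1, 32.1, 31.2, 30.1 and 35.1 CPM, and knockout replicates 1 to 5 had 25.4, 29.6, 29.3, 18 and 22.8 CPM. The highest knockout brain, replicate 2, was just under the lowest wildtype brain, replicate 4. The log2 fold change was -0.44 (SE 0.120, edgeR adjusted p 0.0957). Groups without overlap, lower in knockout, were found for 3 members (Egr2, Egr3 and Nab2) and for 2.64% of all tested genes (4.19% in either direction). Without knockout replicate 3 the value was -0.49 (edgeR adjusted p 0.0253), and DESeq2 on all libraries gave -0.42 (adjusted p 0.0405).

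Egr4 (ENSMUSG00000071341, chromosome 6, 85461125 to 85463583) is the member that lacks the domain through which Nab proteins bind. Wildtype replicates 1 to 5 had 20.8, 17.9, 21.4, 17.7 and 19.4 CPM, and knockout replicates 1 to 5 had 10.3, 14.7, 19.3, 13.2 and 16.7 CPM. Knockout replicate 3 lay inside the wildtype range and the other 4 knockouts lay below it. The log2 fold change was -0.42 (SE 0.120, edgeR adjusted p 0.115), which did not pass. Without knockout replicate 3 it was -0.50 (edgeR adjusted p 0.0125).

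Nab2 (ENSMUSG00000025402, chromosome 10, 127097974 to 127105624), the corepressor that Egr factors induce, fell with little spread. Wildtype replicates 1 to 5 had 28.2, 25.8, 27.2, 26.8 and 30.8 CPM, and knockout replicates 1 to 5 had 22.2, 22.0, 20.1, 20.6 and 18.9 CPM. All knockout brains were below all wildtype brains. Means were 27.8 ± 1.92 and 20.8 ± 1.37 CPM (SD, n = 5 each), a log2 fold change of -0.41 (SE 0.0658, edgeR adjusted p 0.00452). Nab2 kept its call when any 1 library was left out (edgeR adjusted p 0.00304 to 0.0169) and lost it in the 7 shallower libraries alone (-0.43, adjusted p 0.0875). Knockout replicate 3, high for Egr1 and Egr4 among the knockouts, was not high for Nab2.

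Nab2 overlaps neighbouring genes, and whether reads were counted by strand is not stated, so reads from the shared stretches cannot be assigned with certainty. By the deposited positions it overlaps Tmem194 by 1668 bases, the antisense gene Gm16229 by 1646 and Stat6 by 40. Tmem194 was at 9.44 ± 0.684 CPM in wildtype and 9.30 ± 0.821 CPM in knockout (SD, n = 5 each; edgeR adjusted p 0.926). Stat6 was at 13.5 ± 1.63 and 12.3 ± 1.33 CPM (edgeR adjusted p 0.529), and Gm16229 did not exceed 0.169 CPM in any brain. The other members overlap no other gene of the table.

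Nab1 (ENSMUSG00000002881, chromosome 1, 52514138 to 52557523), whose promoter window held the 3 Egr sites shown above, differed least. Wildtype replicates 1 to 5 had 36.2, 43.7, 36.4, 36.5 and 36.2 CPM, and knockout replicates 1 to 5 had 37.5, 34.7, 31.9, 32.2 and 32.5 CPM. Wildtype replicate 2 stood above its group, and knockout replicate 1 lay above 4 of the 5 wildtype brains. The log2 fold change was -0.16 (SE 0.0673, edgeR adjusted p 0.272), and no alternative fit called it (adjusted p 0.173 to 0.474). Nab1 had an unadjusted edgeR p of 0.0283, so a small difference is not shown to be absent.

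**Figure D2:**
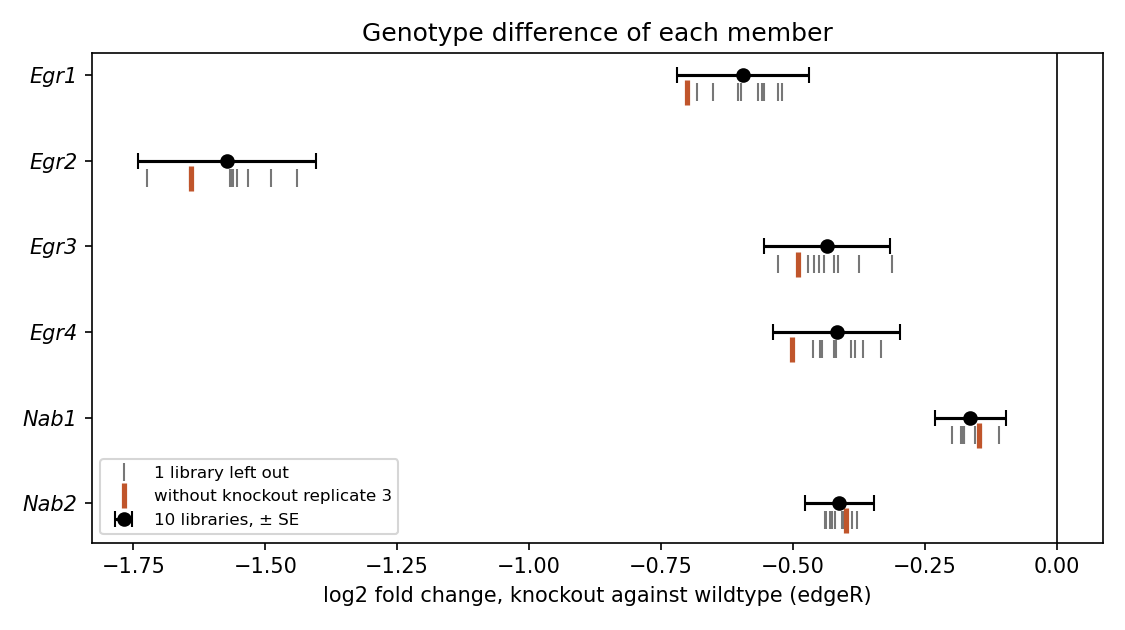
log2 fold change of knockout against wildtype for each gene (black point, ± SE, edgeR, 10 libraries), with the values after leaving out each library (grey ticks) and after leaving out knockout replicate 3 (orange tick). Egr2 lies at -1.57, apart from the other 5 genes, which lie between -0.60 and -0.16.

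In the authors' deposited table, the log2 fold changes were -0.65 for Egr1, -0.48 for Egr3, -0.45 for Egr4, -0.16 for Nab1 and -0.41 for Nab2. The adjusted p-values in the authors' deposited table were 0.00892 for Egr1, 0.00803 for Nab2, 0.112 for both Egr3 and Egr4, and 0.413 for Nab1. Both cells for Egr2 in the authors' deposited table had lost their decimal point and were not read. Apart from Egr2, the same 2 members were below 0.05 in the authors' deposited table as in the edgeR fit.

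Whether the members differed from each other in their genotype difference was tested on the ratio of their counts within each brain. This ratio does not depend on library size. Egr2 was lower in knockout relative to each of the other 5 members. Relative to Egr1 it went from 1 Egr2 count per 19.1 ± 0.738 Egr1 counts in wildtype to 1 per 37.0 ± 6.84 in knockout (SD, n = 5 each). The log2 difference of the Egr1 to Egr2 ratio was 0.94. For the ratio of Egr2 to Egr3, Egr4, Nab1 and Nab2 the log2 differences were -1.12, -1.13, -1.39 and -1.13. In all 5 pairs the groups did not overlap, with a two-sided exact permutation p of 0.00794, the smallest that 252 assignments can give, and 0.0238 adjusted over the 15 pairs compared. All 5 ratios hold the same Egr2 counts, so they are not independent results. The adjusted value rests on all 5 reaching the smallest p together.

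Among the other 10 pairs none passed. The ratio of Nab1 to Nab2 was 1.37 ± 0.196 in wildtype and 1.63 ± 0.0698 in knockout (SD, n = 5 each), a log2 difference of 0.26 (exact permutation p 0.0397, adjusted 0.085). The ratio of Egr1 to Egr4 was 12.03 ± 0.606 and 10.6 ± 1.07, a log2 difference of -0.19 (exact permutation p 0.0397, adjusted 0.085). The remaining 8 pairs had adjusted p-values from 0.134 to 1, so Egr1, Egr3, Egr4 and Nab2 were not shown to differ from each other in their genotype difference.

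**Figure D3:**
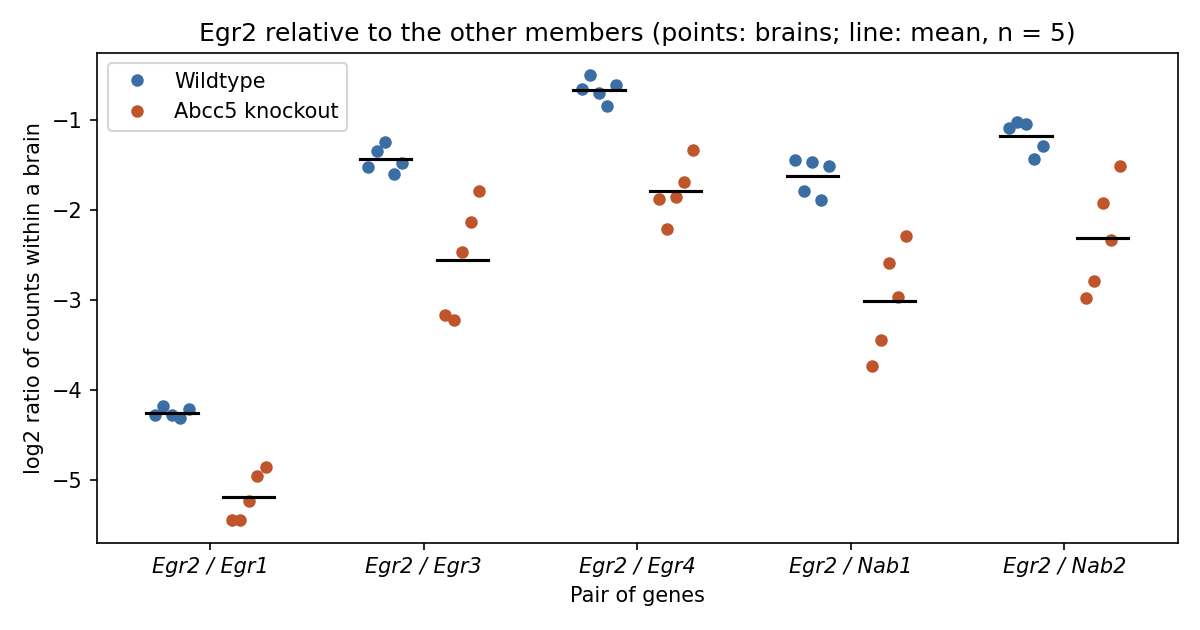
log2 ratio of Egr2 to each other member within each brain (points; wildtype blue, Abcc5 knockout orange; line, group mean, n = 5). In each of the 5 pairs all knockout brains lie below all wildtype brains, with mean differences of 0.94 (Egr1) to 1.39 (Nab1) on the log2 scale.

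Levels of different genes were compared per kilobase of annotated exon (GENCODE M21, matched by Ensembl identifier). In wildtype brains Egr1 was the highest, at 52.3 ± 5.51 CPM per kb. Nab2, Nab1 and Egr4 followed at 9.44 ± 0.653, 9.22 ± 0.803 and 9.06 ± 0.776 CPM per kb, with ranges that overlapped. Egr3 was at 7.56 ± 0.736 CPM per kb, its range overlapping that of Egr4, and Egr2 was the lowest at 3.62 ± 0.410 CPM per kb (SD, n = 5 each). In knockout brains the top and bottom were the same, Egr1 at 34.9 ± 8.26 and Egr2 at 1.29 ± 0.463 CPM per kb. Nab1 then led the middle set at 8.23 ± 0.578 CPM per kb, above all 5 Nab2 values (6.43 to 7.56 CPM per kb) and overlapping Egr4. The lengths come from an annotation that may differ from the one used for counting.

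Brains of 1 genotype also varied together for part of the set. The map of levels by brain shows knockout replicates 3 and 5 high and replicate 1 low for Egr1, Egr2 and Egr4, whereas Egr3 was lowest in knockout replicate 4. After the genotype mean was removed from log2 CPM, the Pearson correlation over the 10 brains was 0.88 between Egr1 and Egr2, 0.90 between Egr1 and Egr4 and 0.78 between Egr2 and Egr4. Without knockout replicate 3 these were 0.89, 0.84 and 0.77. Egr3 had 0.38 with Egr1, -0.060 with Egr2 and 0.33 with Egr4, and without knockout replicate 3 these were 0.17, -0.25 and 0.088. Nab1 and Nab2 had values from -0.62 to -0.38 with Egr1, Egr2 and Egr4, and 0.0065 with each other. These are descriptions of 10 libraries, which share their preparation and depth within a brain.

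**Figure D4:**
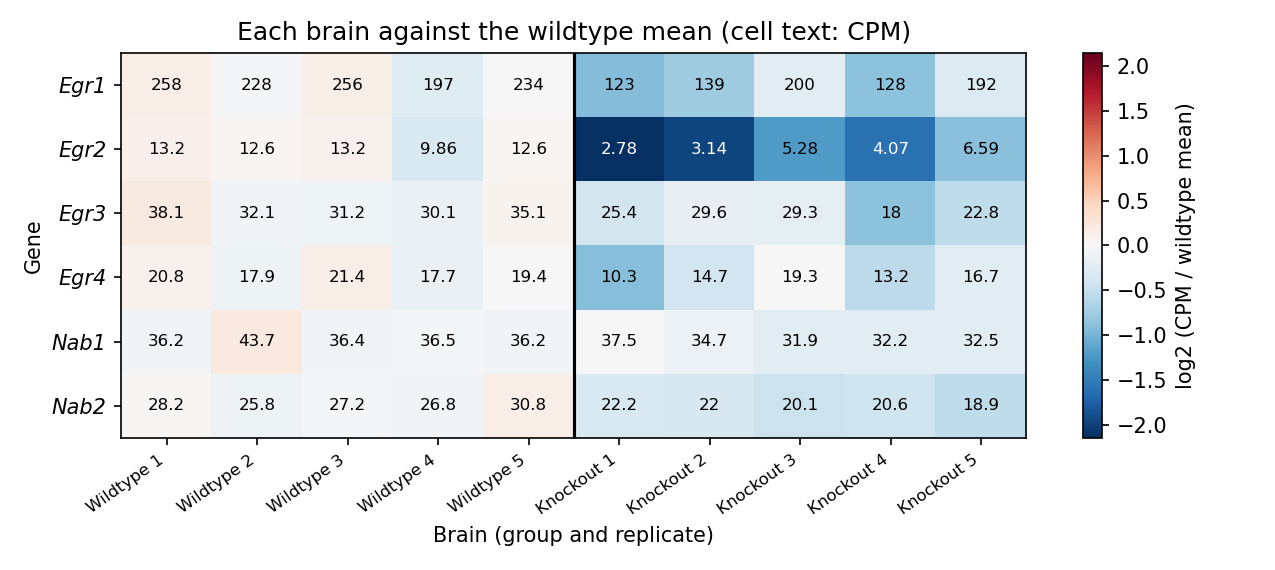
Each brain's level of each gene relative to the wildtype mean, as log2 of the CPM ratio (colour; blue lower, red higher), with the CPM printed in each cell. Egr1, Egr2 and Egr4 share their order over the knockouts in part, with replicate 1 lowest in all 3, while Egr3 is lowest in replicate 4 (18 CPM).

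The genes whose deviations were most like those of each member, among 11872 others with a mean of at least 5 CPM, were picked by the same correlation over 10 brains. For Egr2 they were Stard8, Mex3a, Apold1, Myo16 and Btg2, with correlations from 0.933 to 0.966; Apold1, an early response gene of blood vessels, itself fell in knockout (log2 fold change -0.83, edgeR adjusted p 0.00676), and Btg2 is an immediate early gene. For Egr1 they were Ptdss1, Rasl11b, Pde4d, Meis2 and Rab12 (0.937 to 0.959), and for Egr4 Ptdss1, Elfn2, Pdcd4, Zswim6 and Dock8 (0.917 to 0.945). For Egr3 they were Gsg1l, Baiap2, Pde10a, 2510009E07Rik and Slc6a17 (0.941 to 0.971); Pde10a is a phosphodiesterase enriched in striatal neurons. For Nab1 they were Rab9, Poldip2, Cbx1, Hmga1 and Insig2 (0.878 to 0.922), and for Nab2 Mcm2, Tmem184c, Bub3, Skp2 and Otud7a (0.867 to 0.937). These are the 5 highest of 11872 values for each member, so their size reflects how they were chosen.

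Sums of regional markers also varied between brains, and their correlation with the members was not computed. The sum of 5 striatal markers in knockout replicates 1 to 5 was 377, 396, 443, 282 and 351 CPM, against 345 to 359.5 CPM in wildtype, so replicate 4, lowest for Egr3, was also lowest here. The sum of 5 markers of cortex and hippocampus in the same order was 193, 194, 238, 151 and 178 CPM, against 182 to 213 CPM in wildtype. Knockout replicates 4 and 5 were below every wildtype brain for this sum. From highest to lowest, the knockout replicates ran 3, 2, 1, 5 and 4 for both sums and 2, 3, 1, 5 and 4 for Egr3. Wildtype replicates, in the same way, ran 1, 5, 2, 3 and 4 for Egr3 and 2, 4, 1, 5 and 3 for the striatal sum, whose wildtype range was narrow. In the lists for striatum (5 genes), cortex and hippocampus (5) and cerebellum (7) no gene was called. The part of region in the Egr differences was not tested. Without knockout replicate 4 the log2 fold changes were -0.53 for Egr1, -1.56 for Egr2, -0.31 for Egr3 and -0.37 for Egr4, and without knockout replicate 3 they were -0.70, -1.64, -0.49 and -0.50 in the same order.

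Egr2 is also made by Schwann cells of nerve roots and by activated macrophages. Markers of Schwann cells and of microglia (Cx3cr1, P2ry12, Tmem119, Csf1r and Aif1) were read. No list for activated macrophages was read. Of 5 Schwann cell markers, 2 were too low to test and none of the other 3 was called. The summed level was 70.2 to 80.1 CPM in wildtype and 64.7 to 79.0 CPM in knockout brains, which overlapped. The sum of 5 microglial markers was 144 to 159 CPM in wildtype and 163 to 206.5 CPM in knockout, higher in all 5 knockouts, with no single gene called and a median log2 fold change of 0.16. Markers of meninges and fibroblasts summed to 154 to 178 CPM in wildtype and 119.5 to 159.5 CPM in knockout. All knockouts except replicate 2 lay below the wildtype range for this sum. No single gene of the list was called, and its median log2 fold change was -0.27. The part of these cells in the Egr differences was not tested.

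The genes that act above the Egr genes showed little difference in transcript level, and the activity of their proteins was not measured. Of 19 tested genes for serum response factor, its Ets and myocardin-related partners, CREB, its coactivators and the ERK pathway, 1 fell, none rose and 18 did not pass, and the median log2 fold change was 0.019. The gene that fell was Creb1, the activity-regulated factor that binds cAMP response elements. It went from 87.8 ± 7.20 to 71.7 ± 4.92 CPM (SD, n = 5 each), or -0.29 in log2 (edgeR adjusted p 0.0303). Creb1 no longer passed without any 1 of wildtype replicates 3, 4 and 5 or knockout replicates 1, 2 and 4 (edgeR adjusted p 0.0569 to 0.0959), and in the 7 shallower libraries (0.19). The kinase gene Map2k1, among the most abundant of the list, had 0.047. Srf itself was at 47.6 ± 5.77 CPM in wildtype and 45.9 ± 2.85 CPM in knockout (SD, n = 5 each; edgeR adjusted p 0.717). The kinase gene Rps6ka1 was at 35.6 to 42.7 CPM in wildtype and spread from 13.6 to 50.5 CPM in knockout. Its log2 fold change over all 10 libraries was 0.089 (edgeR adjusted p 0.894). Without knockout replicate 3, Rps6ka1 was called higher.

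None of the 13 genes for the NuRD complex, the chromatin remodelling machine that Nab proteins recruit, was called by edgeR, DESeq2 or limma-voom, and 1 had an unadjusted edgeR p under 0.05. Their median log2 fold change was -0.015. Gatad2b and Mta3, with the smallest p-values, had -0.17 and 0.074 (edgeR adjusted p 0.254 and 0.386). The abundant remodeller genes Chd3 and Chd4 had 0.028 and -0.0078.

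Among 8 tested zinc finger relatives, the Sp and Klf factors, 2 fell and none rose, and the median was -0.031. Klf4, an early response factor of growth arrest, fell from 9.86 ± 0.760 to 5.02 ± 0.989 CPM, a log2 fold change of -0.92 (SD, n = 5 each; edgeR adjusted p 0.000862). Klf10, which responds to transforming growth factor beta, fell from 25.5 ± 2.29 to 16.3 ± 2.41 CPM, a log2 fold change of -0.64 (n = 5 each; edgeR adjusted p 0.00553). Both kept their calls with any 1 library left out. Klf9 and Sp3, the most abundant, had 0.0047 and -0.14 and did not pass. Wt1, the relative closest to the Egr factors in its DNA site, was too low to test.

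Genes described elsewhere as Egr targets were read from a list of 18, of which 17 were in the table and tested. Of these, 2 fell, none rose and 15 did not pass, with a median log2 fold change of -0.024. Arc, a plasticity gene, had -1.17 (edgeR adjusted p 5.17e-06), and Dusp4, a phosphatase of ERK kinases, had -0.54 (edgeR adjusted p 0.00648; 0.206 in the 7 shallower libraries). Arc was read only here and not in the list of other immediate early genes below. Whether the Egr genes had a part in the fall of Arc or Dusp4 was not tested. The synaptic vesicle genes Syn1 and Syn2, the most abundant of the list, had 0.046 and 0.061. Of 6 tested genes that Egr2 drives in Schwann cells none was called by edgeR, DESeq2 or limma-voom without sample weights, 1 was called by limma-voom with sample weights, and 1 had an unadjusted edgeR p under 0.05. Their median was -0.00037. Gjb1, a gap junction gene of myelinating cells, had 0.15 (edgeR adjusted p 0.694). The myelin genes Mbp and Mag, which oligodendrocytes make in brain, had 0.0093 and 0.050.

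**Figure D5:**
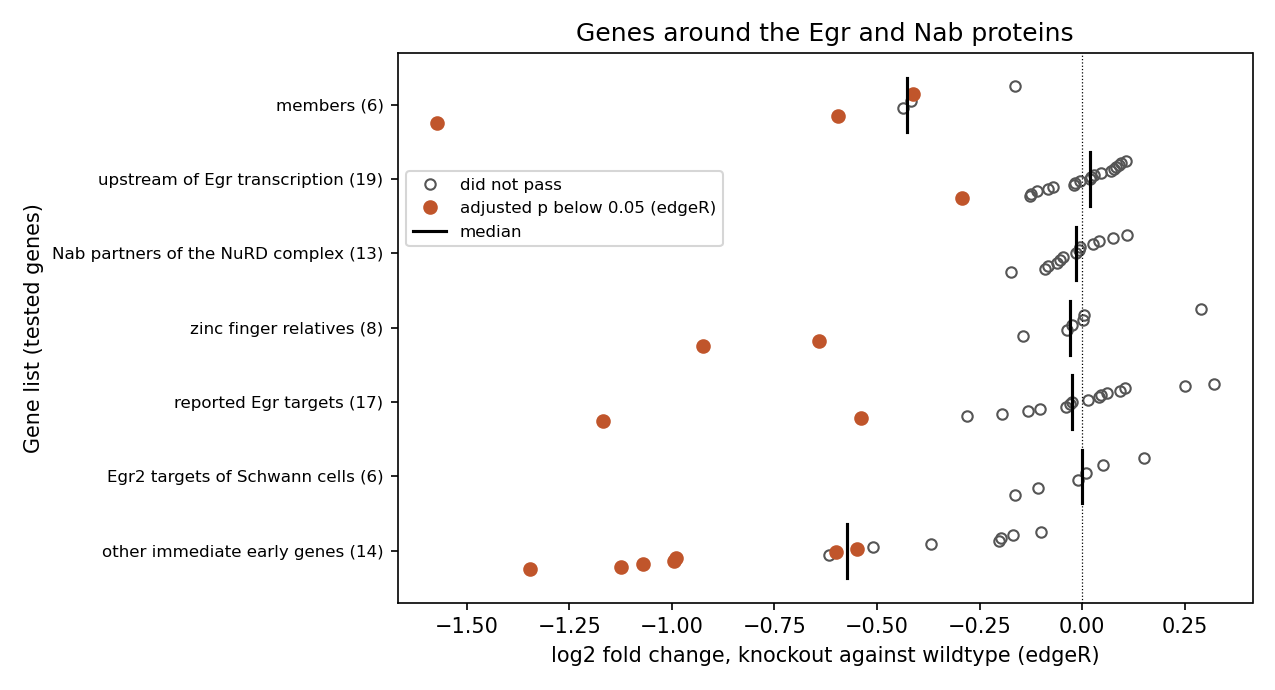
log2 fold change of knockout against wildtype for every tested gene of each list (points; filled where the edgeR adjusted p was below 0.05), with the list median (black line) and the number of tested genes in brackets. The medians of the members (-0.43) and of the other immediate early genes (-0.57) lie below 0, and those of the other 5 lists lie between -0.031 and 0.019.

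Of 14 other immediate early genes, 7 fell, none rose and 7 did not pass, with a median of -0.57. The 7 were Fos, Fosb, Fosl2, Nr4a1, Nr4a2, Nr4a3 and Dusp1, with log2 fold changes from -1.35 (Nr4a3) to -0.55 (Nr4a2), so the value of Egr2 was below all of theirs; the differences from Egr2 were not tested. Jun, among the most abundant, had -0.10 (edgeR adjusted p 0.584). In the 7 shallower libraries 3 of the 14 were called, and without knockout replicate 3 there were 9.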

How the data were processed

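Polyadenylated RNA from 10 whole brains was sequenced, per the labels' protocols. The authors deposited whole-number counts per Ensembl gene and library, a log2 fold change and an adjusted p-value; TopHat2 2.0.6, HTSeq, edgeR and limma are named in the submitters' processing notes, and their roles, the genome build and the strand of counting are not given in the sources used here. Of the deposited cells, 629 fold changes and 8 p-values were not written as a number and were left unread. Cells that read as a number but had lost their decimal point are not in these counts. Another 10 columns, holding other values of the libraries, were not used.

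Genotypes were compared with edgeR 4.0.16 (R 4.3.3): filterByExpr (minimum count 10, minimum total 15), TMM scaling (factors 0.982 to 1.01) and a quasi-likelihood fit with genotype as its term on all 10 libraries, with p-values adjusted by Benjamini-Hochberg over 14526 genes. The biological coefficient of variation was 0.071. Levels are CPM with TMM scaling, log2 CPM used a prior count of 2, and the SE of a log2 fold change is its size over the root of the F statistic. Ratios within a brain added 0.5 counts. Alternatives were the tests of DESeq2 1.42.0 and of limma 3.58.1 (voom, with and without sample weights), scaling by upper quartile or by DESeq2 size factors, no filter or one asking 1 CPM in 5 libraries, a replicate block, the 7 shallower libraries alone, depth class as a term, each library left out in turn, other thresholds, and a prior count of 2 for ratios. The method was tested on simulated data.

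The members, lists and alternatives were chosen with earlier results of these data known. The rule for naming took all members, Abcc5, called genes of each list (at most 8, otherwise the 2 with the smallest p), the 2 most abundant of each list, and the 5 most similar genes per member. Some genes that the rule takes are not reported here. Srf, Rps6ka1 and the genes overlapping Nab2 were named after their values were seen. Of 18 listed Egr targets 1 was not analysed here. A marker list of blood and lymphocytes (4 genes, 2 tested, none called) and lists of excitatory neurons, astrocytes, oligodendrocytes and endothelial cells (4 genes each, none called) were read as well.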

Additional observations from a re-analysis of the deposited data

Results flagged for a closer look

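Within its group of 5, a brain was marked where its gap to the next brain exceeded 0.71 of the group's range, which chance gives for about 1 group in 20; 12 groups were read. Egr2 in wildtype replicate 4 was 9.86 CPM, below 12.6 to 13.2 CPM in the other wildtype brains (gap 0.811 of the range). Nab1 in wildtype replicate 2 was 43.7 CPM, above 36.2 to 36.5 CPM in the other wildtype brains (gap 0.949 of the range).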

How the results depend on the processing

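All 6 members kept their direction in all 20 alternative fits. The count of 171 called genes was 90 with the replicate block, 259 by DESeq2, 563 by limma-voom with sample weights, 31 in the 7 shallower libraries, 63 and 373 at adjusted p thresholds of 0.01 and 0.1, and 76 to 341 with 1 library left out. Egr1 was -0.41 in the shallower libraries and -0.70 to -0.52 with 1 library left out. Egr3 passed without the low-count filter (-0.44), by DESeq2 (-0.42) and by limma-voom with sample weights (-0.41), and ran from -0.53 to -0.31 with 1 library left out. Egr4 passed by limma-voom with sample weights (-0.45) and ran from -0.50 to -0.33 with 1 left out. Nab2 was -0.43 in the shallower libraries. In the deeper libraries (1 wildtype, 2 knockouts) the mean log2 CPM of Egr1, Egr2, Egr3, Egr4, Nab1 and Nab2 differed by -0.95, -1.84, -0.72, -0.58, -0.12 and -0.41, and in the shallower ones by -0.44, -1.35, -0.32, -0.35, -0.17 and -0.44. Equal replicate numbers did not pair the brains (correlations of deviations -0.138 to 0.0893); the replicate block changed no member's call, and Creb1 missed the threshold with it (-0.29, adjusted p 0.0644). With sign flips in the replicate block 0 of the 15 pairs passed, since 5 differences cannot reach the threshold; with 1 library left out 5 or 6 passed. Values near 0 that changed sign were Chd4 (0.0090 by upper-quartile scaling, 0.014 by limma-voom with sample weights, 0.0099 in the shallower libraries), Gjb1 (-0.015), Klf9 (-0.0026), Mag (-0.066) and Mbp (-0.081) in the shallower libraries, and Mag (-0.0025) and Mbp (-0.038) with depth class as a term. With 1 library left out, the ranges that crossed 0 were -0.018 to 0.055 for Chd3, -0.030 to 0.021 for Chd4, -0.019 to 0.017 for Klf9, -0.0035 to 0.080 for Map2k1 and -0.040 to 0.060 for Mbp. The cause of these changes was not tested. With 24 to 96 counts per knockout library, Egr2 was the member with the least depth behind it.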
